A study of Homo sapiens with 6 samples.

Results

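H3K9me3, trimethylation of lysine 9 on histone H3, was mapped by chromatin immunoprecipitation and sequencing in BJ, a fibroblast line established from human skin. CRISPR interference, which silences a gene by tethering a repressor to it, was directed by PURPL guide 1, PURPL guide 2 or a control guide. PURPL is a long non-coding RNA gene that p53 induces. For each guide there was 1 H3K9me3 library and 1 input library, all from cells fixed with 1% formaldehyde for 10 min, and the labels give neither the repressor nor whether a line is 1 clone. The regions described here are control peaks on the arms of chromosomes 1 to 22 that remained in both knockdown lines. They were chosen by overlap, as control peaks sharing at least 1 bp with a guide 1 peak and with a guide 2 peak, with a midpoint outside 22 windows around the centromeres. Of 9883 control arm peaks, 542 met this rule and are called kept peaks, out of 50558 peaks in the 3 deposited lists together.

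H3K9me3 is the mark of constitutive heterochromatin, where it is bound by HP1 proteins. It is laid down by the SUV39H enzymes, chiefly at the satellite repeats of centromeres, and by SETDB1, which the corepressor KAP1 and KRAB zinc finger proteins bring to transposons on the chromosome arms. In human cells the mark also covers the genes that encode KRAB zinc finger proteins, above all over their 3′ exons with the tandem zinc finger repeats, and ZNF274 is one protein known to recruit it there. The mark is no measure of expression, and the PURPL transcript was not analysed here.

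Promoters lay under few kept peaks, and 7 of the 17 overlapped windows belonged to 1 gene family whose copies stand side by side. The sequences shown are promoter windows of RefSeq on GRCh38.p14, running from 250 bp before to 50 bp after a gene start, and they were picked because the mark lay on the window itself. TAF11L3 and TAF11L7 belong to a family of relatives of TAF11, a subunit of the general transcription factor TFIID. The TAF11L3 window lay at chr5:17518117-17518416 on the plus strand and was under peaks of all 3 lists over its whole length. The TAF11L7 window lay at chr5:17585709-17586008 on the minus strand, with 300 bp under guide 1 peaks, 0 bp under guide 2 peaks and 300 bp under a control peak. The TAF11L5 window has the same 300 bases as that of TAF11L3 but had only 87 bp under guide 2 peaks. TAF11L3 and TAF11L7 differ in 1 base, shown in capitals.
TAF11L3: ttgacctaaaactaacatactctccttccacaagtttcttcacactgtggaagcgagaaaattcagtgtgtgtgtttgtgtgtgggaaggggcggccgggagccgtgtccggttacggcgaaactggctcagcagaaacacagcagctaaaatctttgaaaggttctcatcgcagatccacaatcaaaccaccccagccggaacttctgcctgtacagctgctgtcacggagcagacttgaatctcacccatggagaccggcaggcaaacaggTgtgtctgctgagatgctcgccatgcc
TAF11L7: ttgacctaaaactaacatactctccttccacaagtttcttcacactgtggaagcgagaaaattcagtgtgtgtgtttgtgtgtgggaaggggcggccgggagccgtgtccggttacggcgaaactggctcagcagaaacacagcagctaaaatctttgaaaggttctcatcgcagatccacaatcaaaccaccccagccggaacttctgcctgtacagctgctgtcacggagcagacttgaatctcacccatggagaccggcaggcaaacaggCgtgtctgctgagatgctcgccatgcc
The window of FAM27E4, a long non-coding RNA gene, lay at chr9:61856455-61856754 on the plus strand and was also wholly under all 3 lists. Its 29 CpG dinucleotides are in capitals.
FAM27E4: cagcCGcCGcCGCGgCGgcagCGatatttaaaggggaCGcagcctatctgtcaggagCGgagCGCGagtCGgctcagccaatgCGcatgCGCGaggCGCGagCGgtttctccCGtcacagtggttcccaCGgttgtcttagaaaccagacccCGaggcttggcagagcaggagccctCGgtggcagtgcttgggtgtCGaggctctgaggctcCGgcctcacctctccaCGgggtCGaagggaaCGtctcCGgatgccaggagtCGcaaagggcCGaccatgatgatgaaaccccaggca
The window of ZNF274 lay at chr19:58182811-58183110 on the plus strand. The 43 bases under all 3 lists, at its upstream end, are in capitals.
ZNF274: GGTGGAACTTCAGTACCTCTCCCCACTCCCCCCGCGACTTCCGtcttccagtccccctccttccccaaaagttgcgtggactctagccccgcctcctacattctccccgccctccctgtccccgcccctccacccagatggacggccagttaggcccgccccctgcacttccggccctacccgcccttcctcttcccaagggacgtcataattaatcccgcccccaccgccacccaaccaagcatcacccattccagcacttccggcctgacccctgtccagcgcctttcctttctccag

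The overlap that chose the members is given as a description. A guide 1 peak lay on 1725 control arm peaks (17.5%), a guide 2 peak on 848 (8.58%), and both lay on the 542 kept peaks (5.48%, Wilson 95% interval 5.05% to 5.95%). These intervals cover counting error only. The remaining control arm peaks comprised 1183 that met guide 1 alone, 306 that met guide 2 alone and 7852 that met neither. Of the arm peaks with guide 2 overlap 63.9% also had guide 1 overlap, and of those with guide 1 overlap 31.4% also had guide 2 overlap. Inside the centromere windows the same rule held for 6012 of 12265 control peaks (49.0%, interval 48.1% to 49.9%). Kept peaks carried 834 of the 3613 arm peaks of guide 1 (23.1%) and 795 of the 1853 arm peaks of guide 2 (42.9%).

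The lists differed in length before any overlap was taken. Arm peaks covered 3.55 Mb with guide 1, 1.45 Mb with guide 2 and 10.8 Mb with the control guide. Sequencing depth is unknown, and with 1 library per line no difference between lines has a replicate check, so no p-value or SD is given. How far depth bears on the number of kept peaks was not tested. PURPL itself had 0 kept peaks, and the nearest lay 9872949 bp from the gene.

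A kept peak was in most cases only partly covered in the knockdown lines. Kept peaks spanned 2.93 Mb in the control list, of which 53.9% lay under guide 1 peaks and 28.2% under guide 2 peaks. Only 20.2% of this length was common to all 3 lists. Guide 1 covered the longer part of 405 kept peaks and guide 2 of 127, with 10 equal. The whole control peak was covered by guide 1 at 46 kept peaks, by guide 2 at 24 and by both at 10. At 67 kept peaks (12.4%, interval 9.85% to 15.4%) the guides touched different stretches, so that no base was common to all 3 lists, and the name kept holds there for the peak and not for any of its bases. At least 50% of the peak was under each guide at 100 kept peaks. With only peaks at or above the median score of each list, 140 of 2613 control arm peaks were kept (5.36%, beside 5.48% with all peaks). With the 1853 highest-scoring arm peaks of each list, 302 of 1853 were kept (16.3%).

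**Figure D1:**
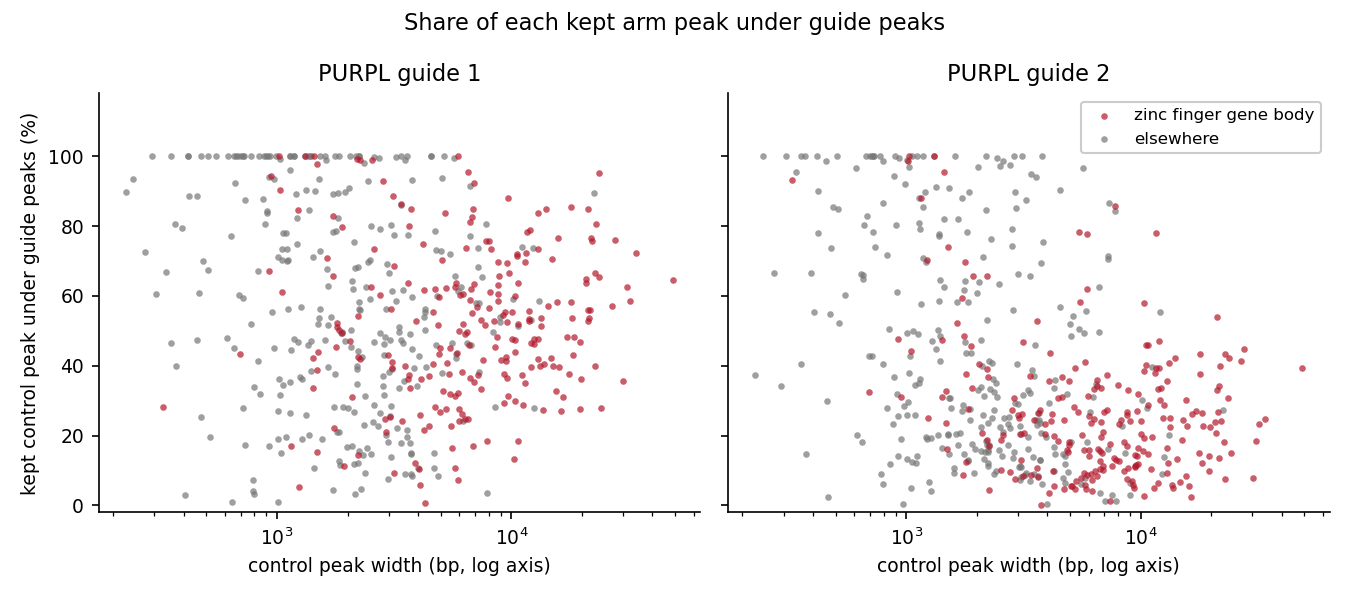
Each point is 1 of the 542 kept peaks, with the width of the control peak on the x axis (bp, log axis) and the percentage of it under guide 1 peaks (left) or guide 2 peaks (right) on the y axis. Peaks in zinc finger gene bodies (red) fill the wide end, where guide 2 covers 26.2% of the length of peaks of at least 10000 bp and guide 1 covers 56.1%, while full coverage is seen mainly among narrower peaks elsewhere (grey).

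Wide control peaks were met as several shorter peaks in the knockdown lines. Of the 542 kept peaks, 164 met 2 or more guide 1 peaks and 129 met 2 or more guide 2 peaks. Up to 12 guide 1 peaks and up to 13 guide 2 peaks lay on 1 kept peak. The widest kept peak, chr4:422039-471024, spanned 48986 bp over the zinc finger gene ZNF721 and the pseudogene ABCA11P, and it carried both maxima. Guide 1 peaks covered 31655 bp of it and guide 2 peaks 19241 bp. Neighbouring arm peaks of 1 list were at least 874 bp apart with guide 1, 884 bp with guide 2 and 902 bp with the control guide, so a gap between peaks is never shorter than this. The median width of peaks on kept peaks was 1346 bp with guide 1 and 846 bp with guide 2.

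At the edge of the rule, an overlap of a few bases decided membership. ZGPAT held the kept peak chr20:63714867-63715835 with 3 bp under guide 2 and 436 bp under guide 1. Its product is a zinc finger protein of transcriptional repression, but the gene lacks the names that define zinc finger genes here and counts among other coding genes. A kept peak in ZNF345, chr19:36883569-36887317, had 4 bp under guide 2 and 3185 bp under guide 1. Another, chr2:197483498-197484142, lay in no annotated gene and had 6 bp under guide 1 and 117 bp under guide 2. Just outside, control peaks in NRXN3, in no gene on chromosome 12 and in ZNF383 missed guide 2 by 13, 17 and 18 bp while meeting guide 1. In all, 10 kept peaks had under 50 bp under a guide, and 8 peaks met 1 guide and lay within 50 bp of a peak of the other.

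Kept peaks were wide, which the rule favours because a wide peak has more bases to meet. Their median control width was 3152 bp (quartiles 1517 and 6826 bp), against 1110 bp for peaks that met guide 1 alone, 960 bp for guide 2 alone and 579 bp for neither. The share kept was 0.589% of control arm peaks under 500 bp, 5.29% from 1000 to 2000 bp, 25.5% from 2000 to 5000 bp, 72.1% from 5000 to 10000 bp and 94.5% from 10000 bp, where 86 of 91 were kept. The control score, the authors' value for each peak on a scale the sources do not name, went the same way. The share kept was 0.870% for control scores up to percentile 20 of the control list and 33.1% from percentile 80, where 58 of 175 were kept.

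Gene position was not used to choose the peaks. Zinc finger gene bodies, meaning coding genes named ZNF, ZFP, ZSCAN, ZKSCAN, ZIM or ZBTB, held 238 of the 542 kept peaks (43.9%, interval 39.8% to 48.1%). They held 405 of the 7852 control arm peaks that met neither guide (5.16%, interval 4.69% to 5.67%) and 8.92% of all control arm peaks. The share was 17.1% of peaks that met guide 1 alone and 12.1% of those that met guide 2 alone. A share above that of all control arm peaks was thus not particular to kept peaks. A further 117 kept peaks lay in other coding genes, 77 in non-coding genes or pseudogenes alone and 110 in no annotated gene. The share outside any gene was 20.3% of kept peaks, against 41.2% of peaks that met neither guide. It was 31.9% of peaks that met guide 1 alone and 34.3% of those that met guide 2 alone. The kept peaks in zinc finger genes had a median width of 6719 bp, against 2214 bp in other coding genes.

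Within a class of width, the share kept in zinc finger genes and elsewhere differed less than the totals did. From 1000 to 2000 bp it was 12.7% in zinc finger genes (25 of 197, interval 8.75% to 18.1%), against 4.50% elsewhere (84 of 1865, interval 3.65% to 5.54%). From 2000 to 5000 bp it was 27.5% in zinc finger genes, against 24.7% elsewhere, and from 5000 to 10000 bp it was 72.9%, against 70.0% elsewhere, with overlapping intervals in both classes. From 10000 bp it was 94.0% in zinc finger genes (78 of 83), and all 8 of 8 peaks elsewhere were kept. Zinc finger genes held 83 of the 91 control arm peaks from 10000 bp and 148 of the 3734 under 500 bp, so width and gene family went together in the control list.

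**Figure D2:**
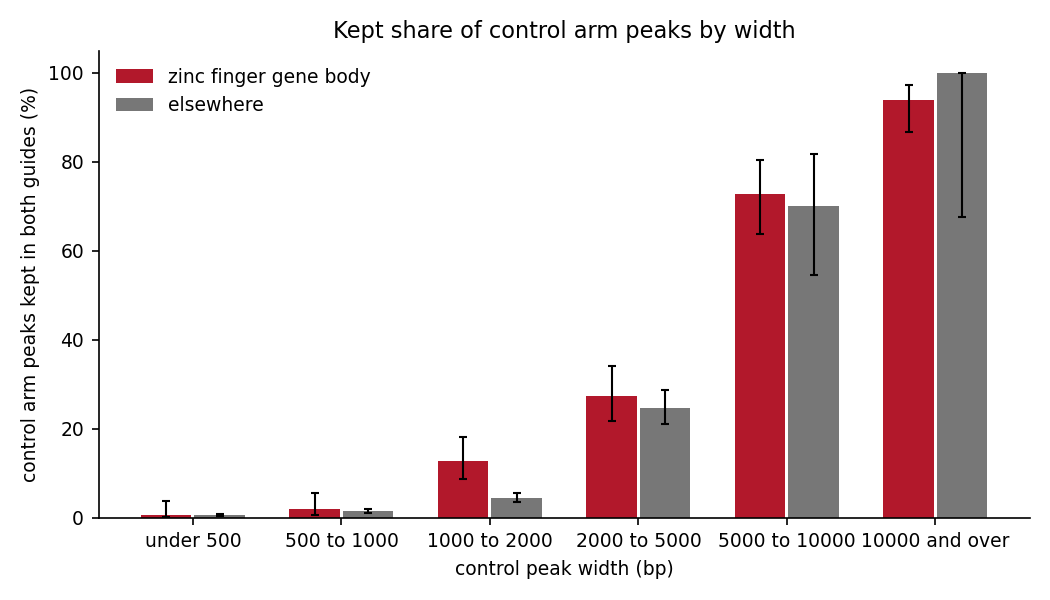
Bars give the percentage of control arm peaks of each width class (bp) that met a peak of both guides, in zinc finger gene bodies (red) and elsewhere (grey), with Wilson 95% intervals that cover counting error only. The paired bars are close from 2000 bp upward, at 27.5% and 24.7%, then 72.9% and 70.0%, and they part at 1000 to 2000 bp, at 12.7% and 4.50%.

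The zinc finger share depended on how overlap was measured. Of the 100 kept peaks with at least 50% under each guide, 14.0% lay in zinc finger genes, against 8.92% of all control arm peaks, and their median width was 1380 bp. Of the 490 with at least 200 bp under each guide, 46.7% did. In zinc finger genes 53.5% of the kept length was under guide 1 and 24.7% under guide 2. In no annotated gene these shares were 54.7% under guide 1 and 43.2% under guide 2. The median share per peak was 51.3% under guide 1 and 23.9% under guide 2 in zinc finger genes, and 60.3% under guide 1 and 42.0% under guide 2 in no annotated gene. The peaks also differed in width, with a median of 6719 bp in zinc finger genes and 1657 bp in no annotated gene, and the part of width in these shares was not tested.

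By gene, 309 of the 2570 coding genes with a control arm peak held a kept one (12.0%). Zinc finger genes were 193 of the 309. A kept peak was found in 57.1% of the 338 zinc finger genes with a control arm peak (interval 51.8% to 62.3%) and in 5.20% of the 2232 other coding genes (interval 4.35% to 6.20%). The 15 coding genes with the most kept bases were all zinc finger genes, led by ZNF69, ZNF141, ZNF605, ZNF345 and ZNF721. ZNF69 had 20794 bp of its kept peaks under guide 1 peaks and 12955 bp under guide 2 peaks, out of 37076 bp in the control. ZNF141 had 19189 bp under guide 1 and 8203 bp under guide 2, out of 34984 control bp in 5 kept peaks. ZNF605, on chromosome 12, had 19200 bp under guide 1 and 12364 bp under guide 2, out of 32742 control bp. In these 3 genes guide 2 covered less of the kept peaks than guide 1 did. Bases are counted only inside kept control peaks, so a guide cannot exceed the control here.

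The same 15 genes varied widely in how much remained. ZNF544 had 95.6% of its 25032 kept bp under guide 1 and 45.2% under guide 2. ZNF274, the gene of the recruiting protein, had 79.7% of 28801 bp under guide 1 and 43.5% under guide 2, and ZNF84 78.6% and 45.6% of 24544 bp. At the other end ZNF578 had 35.6% of 30051 bp under guide 1 and 7.97% under guide 2, in 1 kept peak of 30051 bp. ZNF717 had 30.8% of 29611 bp under guide 1 and 18.2% under guide 2, and ZNF44 35.7% and 18.5% of 26549 bp. Guide 2 covered the smaller part in all 15, from 7.97% at ZNF578 to 45.6% at ZNF84. ZNF559-ZNF177, ZNF461, ZNF268 and ZNF420 made up the rest, with 51.5% to 62.3% under guide 1 and 22.6% to 33.1% under guide 2.

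Within their kept peaks, the zinc finger genes ZNF557 and ZNF594 had similar lengths under both guides. ZNF557 had 8398 bp under guide 1 and 9042 bp under guide 2, out of 11594 control bp in 1 kept peak. ZNF594 had 5897 bp under guide 1 and 6673 bp under guide 2, out of 7774 control bp. In the kept peaks of both genes the longer part was under guide 2. This held for 59 of the 309 coding genes, against 245 with the longer part under guide 1. Over its whole body ZNF594 had 7132 bp with guide 1, 6898 bp with guide 2 and 12919 bp with the control guide. ZNF93, a repressor of LINE-1 elements, had its one kept peak of 2383 bp wholly under guide 1 and 1469 bp of it under guide 2. The whole ZNF93 body had 4279 bp with guide 1, 1469 bp with guide 2 and 13086 bp with the control guide. ZNF844 and ZNF140 also stood among the 8 genes with the largest share common to all 3 lists, at 51.8% and 49.2%. Guide 2 covered less of their kept bases than guide 1, with 51.8% against 92.1% at ZNF844 and 49.6% against 90.3% at ZNF140.

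Along zinc finger genes the kept mark lay toward the end of the gene. With each gene body divided into 3 parts of equal length, the last part held 60.3% of the bases under guide 1, 60.3% of those under guide 2 and 53.3% of the control bases of kept peaks, summed over 170 genes. The first part held 10.6% under guide 1, 11.0% under guide 2 and 12.8% of the control bases. In control peaks that met neither guide, over 177 zinc finger genes, the last part held 39.5% and the first part 22.2%. Other coding genes with a kept peak, 84 in number, had 41.2% of the kept control bases in the last part and 19.7% in the first, against 28.7% and 35.5% for peaks that met neither guide. A gene enters only where a promoter window gives its strand, and wide peaks weigh most in these sums.

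**Figure D3:**
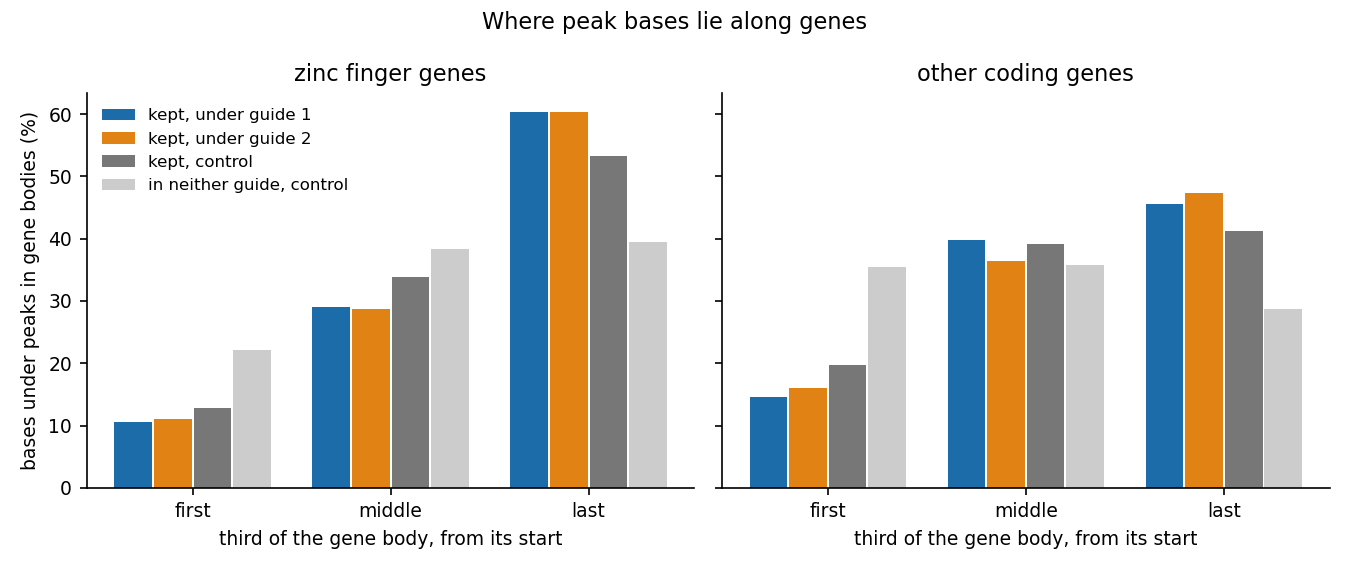
Bars give the percentage of peak bases in the first, middle and last part of equal length of gene bodies, for zinc finger genes (left) and other coding genes (right), in kept peaks under guide 1 (blue), under guide 2 (orange) and in the control (dark grey), and in control peaks that met neither guide (light grey). In zinc finger genes the last part holds 60.3% of the bases under each guide and 39.5% of the bases of peaks that met neither guide.

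Chromosome 19, where many human zinc finger genes lie in clusters, held 206 of the 542 kept peaks (38.0%), against 6.36% of the peaks that met neither guide. There 21.7% of control arm peaks were kept (206 of 948), and on the other chromosomes together 3.76% were (336 of 8935). Chromosomes 17 and 8 followed with 8.37% and 7.55%, and chromosome 3 had the lowest share, 2.09%. On chromosome 8, 26 of the 36 kept peaks lay in 1 array of REXO1L pseudogenes, and without it the share was 2.24% (10 of 446). Chromosome 4 had 5.57% kept, and 3.5% without its USP17L array. Without chromosome 19, zinc finger genes still held 25.3% of the kept peaks, and the length under guide 2 was 33.4%. Chromosome 21 had 3 kept peaks and chromosome 22 had 4. On chromosome 21 the peak chr21:34166711-34167719 had 11 bp under guide 1 and 998 bp under guide 2, so nearly all of what remained was in 1 line.

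**Figure D4:**
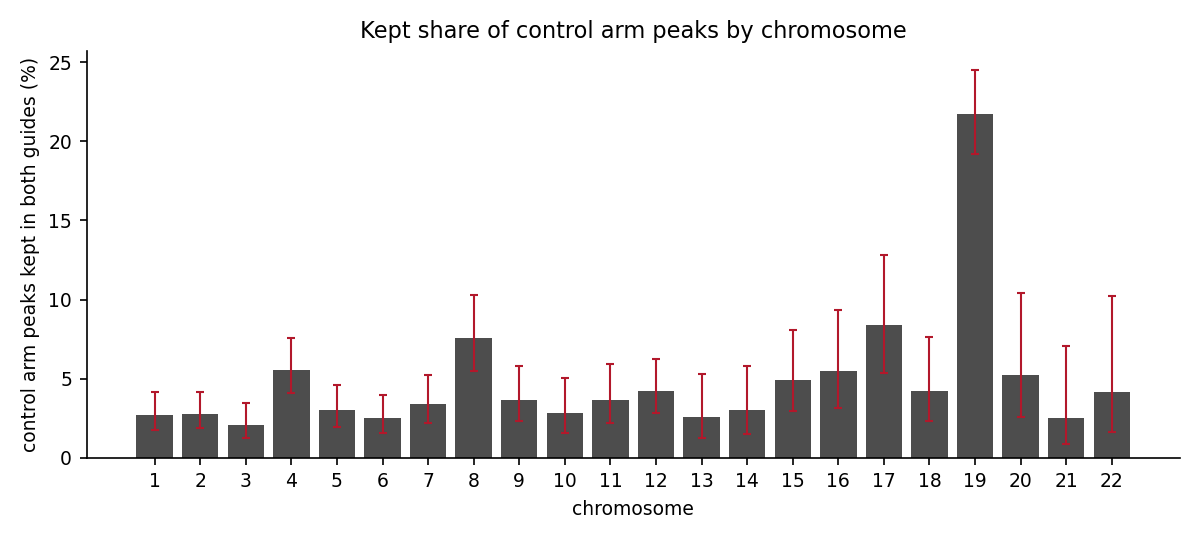
Bars give the percentage of control arm peaks on each chromosome that met a peak of both guides, with Wilson 95% intervals (red) that cover counting error only. Chromosome 19 stands at 21.7%, and the next, chromosomes 17 and 8, at 8.37% and 7.55%, with chromosome 8 at 2.24% without its REXO1L array.

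Kept peaks lay close to other control peaks. Another control arm peak lay within 5000 bp of 66.4% of kept peaks (interval 62.3% to 70.3%), against 21.9% of peaks that met neither guide. The share was 35.7% of peaks that met guide 1 alone, 44.1% of those that met guide 2 alone and 26.7% of all control arm peaks. Linked across gaps of up to 50000 bp, the 542 kept peaks formed 307 groups, of which 235 were single peaks. The 18 groups of at least 5 held 179 kept peaks. The largest, chr19:11777307-12540289, had 26 kept peaks, 23 of them in zinc finger genes such as ZNF433, ZNF44, ZNF69 and ZNF564. Of their 193511 control bp, 96700 bp lay under guide 1 and 53914 bp under guide 2. The group chr19:36625622-36953804, with ZNF567, ZNF461 and ZNF345, had 12 kept peaks at a median width of 10039 bp. Over its whole span the guide 1 list had 47 peaks over 105042 bp, the guide 2 list 38 peaks over 45284 bp and the control list 24 peaks over 186944 bp, so both guides had more peaks over less length.

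Of the 18 groups, 7 had no more peaks in zinc finger genes than outside them, and several of these lay in arrays of repeated gene copies. The arrays of TAF11L, USP17L and REXO1L copies and the closely spaced peaks of CYKILR, 4 regions chosen after their values were seen, are given here. They held 60 kept peaks, of whose length 73.6% lay under guide 1, 65.1% under guide 2 and 50.1% was common to all 3 lists. In zinc finger genes these shares were 53.5% under guide 1, 24.7% under guide 2 and 17.8% common, and in all other kept peaks 50.6% under guide 1, 30.3% under guide 2 and 20.8% common. Reads of near-identical copies may fit more than 1 place, and the part of this in the values was not tested.

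The array of TAF11L genes, chr5:17518019-17599342, had 5 kept peaks and no other control peak. Over its span the guide 1 list had 22454 bp under peaks, the guide 2 list 18206 bp and the control list 21921 bp, which is 102% of the control length with guide 1 and 83.1% with guide 2. Here lay 7 of the 17 promoter windows that kept peaks overlapped, and 4 of these 7 were wholly under all 3 lists. Compared base by base, the 7 windows shared 298 to 300 of 300 bases in each of 21 pairs, so coverage differed between copies that are nearly the same in sequence. TAF11L7, printed above, had no guide 2 peak on its window, TAF11L9 had 84 bp under guide 2 and TAF11L5 had 87 bp.

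Genes of the USP17L family, which encode deubiquitinating enzymes and stand in tandem on chromosome 4, had 15 kept peaks in chr4:9215523-9362046. The guide 1 list had 39313 bp there, the guide 2 list 40139 bp and the control list 43982 bp. Of the USP17L and DUX4 genes, 10 of the 17 with a control arm peak had a kept one (58.8%). Of the list of tandem or segmental duplication families, 12 of 32 did (37.5%). Both lists include pseudogenes, while the share over all genes, 12.0%, is of coding genes alone. Without zinc finger genes that share was 5.20%. Among the USP17L genes, USP17L17 had 1589 bp under guide 1, 1593 bp under guide 2 and 1593 bp in the control. USP17L15 differed between lines, with 631 bp under guide 1, 1518 bp under guide 2 and 1662 bp in the control. The REXO1L array on chromosome 8, made of pseudogenes related to an RNA exonuclease gene, had 26 kept peaks. Its span of 185 kb carried 74242 bp with guide 1, 66615 bp with guide 2 and 87923 bp with the control guide. Its copies differed. REXO1L6P had 1136 bp under each guide and in the control, but REXO1L4P had 0 bp under either guide and 1136 bp in the control. ANKRD18CP, on chromosome 9 and also of the duplication list, had 1691 bp under guide 1, 1092 bp under guide 2 and 3305 bp in the control.

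CYKILR, a single long non-coding RNA gene at chr19:36269965-36308622 by its kept peaks, was the one of the 4 regions with longer coverage in both knockdown lines. The guide 1 list covered 22215 bp of this span, the guide 2 list 17757 bp and the control list 14874 bp. Its 14 kept peaks were narrow, with a median width of 998 bp, and their starts were spaced by a median of 2689 bp. Guide 1 peaks covered 89.8% of their length and guide 2 peaks 64.8%.

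**Figure D5:**
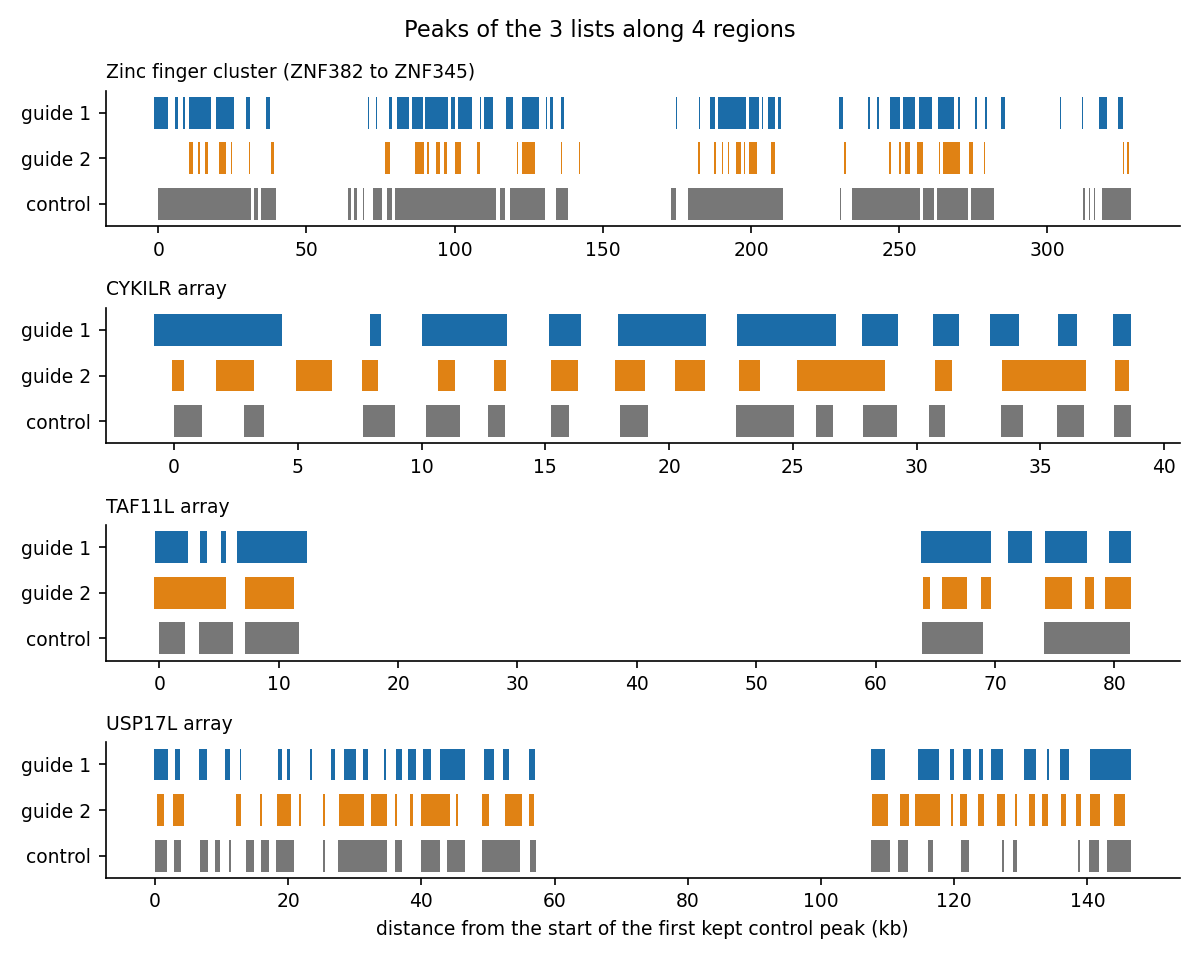
Horizontal bars are the peaks of guide 1 (blue), guide 2 (orange) and the control guide (grey) along 4 regions, drawn to scale against the distance in kb from the start of the first kept control peak. In the zinc finger group the 24 control peaks over 186944 bp stand beside 47 guide 1 peaks and 38 guide 2 peaks over less length. In the CYKILR region, titled an array in the panel though it is 1 gene, the guides cover 22215 and 17757 bp beside 14874 bp in the control.

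DUX4, the germline transcription factor gene in the D4Z4 repeats at the end of chromosome 4, had the largest share common to all 3 lists among coding genes with at least 2000 kept bases. Its kept peak chr4:190177399-190179993 had 2591 bp under guide 1, 2559 bp under guide 2 and 2595 bp in the control. Its score stood at percentile 99.3 of the guide 1 list, 99.0 of the guide 2 list and 99.2 of the control list. Of the kept peaks, 5 were at or above percentile 90 of all 3 lists at once. The one that stood highest was chr18:107187-110765, near the end of chromosome 18 in the ROCK1 pseudogene ROCK1P1, at percentiles 99.6 with guide 1, 99.2 with guide 2 and 99.7 with the control guide. The next, chr10:133686978-133690374, lay in no annotated gene near the end of chromosome 10, at 99.1 with guide 1, 99.0 with guide 2 and 99.3 with the control guide. For a guide list, the percentile is that of the highest-scoring guide peak on the kept peak. Over all kept peaks the median percentile was 52.4 in the guide 1 list, 39.0 in the guide 2 list and 64.6 in the control list. Most kept peaks were thus not among the top scores of any list. Over all arm peaks of a guide lying on kept peaks, the median percentile was 44.5 with guide 1 and 34.1 with guide 2.

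Other coding genes with kept peaks, 116 in all, ranged from nearly whole to separate remainders. BRSK2, a kinase gene of neurons, had 2006 bp under guide 1, 2436 bp under guide 2 and 2507 bp in the control in 1 kept peak. SPECC1 had 1510 bp under guide 1, 1177 bp under guide 2 and 2214 bp in the control. At the other end, 25 of the 234 coding genes with at least 2000 kept bases had no base common to all 3 lists. Of the 25, 15 were zinc finger genes and 10 were not, while 180 of the 234 were zinc finger genes. Since all 25 share the value 0, the 8 named by the rule, none of them a zinc finger gene, are the first by symbol. ATP2B2, a calcium pump gene, had 73 bp under guide 1, 332 bp under guide 2 and 2160 bp in the control. NNMT, the nicotinamide methyltransferase gene, had 1886 bp under guide 1, 279 bp under guide 2 and 3222 bp in the control. STAG1, which encodes a cohesin subunit, had 2372 bp under guide 1, 419 bp under guide 2 and 4286 bp in the control. PRAG1, RALGPS2, RSRC1, TXNL4A and LOC124904708 had 8.95% to 59.3% under guide 1 and 6.0% to 15.9% under guide 2. LOC124904708 overlaps the zinc finger gene ZNF793 and shares its 5771 kept bp, so it adds no separate region.

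Genes of other types with a kept peak numbered 145, with 56 long non-coding RNA genes, 53 pseudogenes and 22 transcribed pseudogenes among them. SNHG14, the host transcript of the SNORD116 small nucleolar RNAs in the imprinted Prader-Willi region, had 24386 bp under guide 1, 7331 bp under guide 2 and 29798 bp in the control. One of its kept peaks, chr15:25054835-25077369, ran over most of the 11 small nucleolar RNA genes that kept peaks touched, with 20178 bp of 22535 bp under guide 1 and 6151 bp under guide 2. ABCA11P had 29368 bp under guide 1, 18995 bp under guide 2 and 45590 bp in the control, in the widest kept peak. ZNF790-AS1, ZNF571-AS1, ZNF350-AS1 and ZNF286A-TBC1D26 lie over or beside zinc finger genes and share their peaks, so they add no separate regions. The microRNA gene MIR4273, inside ZNF717, had 84 bp under guide 1 peaks, 4 bp under guide 2 peaks and 84 bp under control peaks. MIR571, inside ZNF141, had 96 bp under guide 1, 0 bp under guide 2 and 96 bp under the control. LOC105372316 and LOC100289333, both on chromosome 19, completed the 8 with the most kept bases, with 44.8% and 42.3% under guide 1 and 20.6% and 14.3% under guide 2.

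Imprinted genes had 2 members with kept peaks of 6 with a control arm peak. The list does not hold SNHG14. The 2 were KCNQ1, a potassium channel gene, and its antisense transcript KCNQ1OT1, which share the same 2 peaks, with 3275 bp under guide 1, 1278 bp under guide 2 and 7606 bp in the control. Several lists had none, whatever their control peaks. Kept peaks lay in 0 of 24 clustered protocadherin genes with a control arm peak, 0 of 15 genes of the neuronal list, 0 of 6 olfactory receptor genes and 0 of 6 genes of H3K9 methylation. They lay in 0 of the 2 fibroblast marker genes, 0 of the 1 melanocyte marker gene, 0 of the 1 p53 target and 0 of the 1 ribosomal protein gene with a control arm peak. Keratinocyte, endothelial and blood markers had no control arm peak. The neuronal list holds 29 genes of synapses and neuronal adhesion and is not complete: BRSK2 and the synapsin gene SYN3, each with a kept peak, are outside it. Most of these lists had few members with a control arm peak. Among all coding genes with one, 12.0% had a kept peak, and among those other than zinc finger genes 5.20% did.

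Only 9 of the 309 coding genes had longer coverage in both guides than in the control over their whole body, against 276 that were shorter in both. These counts only describe the members. Every gene was chosen through a control peak, and the control list covers 10.8 Mb of the arms, against 3.55 Mb with guide 1 and 1.45 Mb with guide 2. Both favour shorter coverage in the guides, and genes with guide peaks alone could not enter. The 9 were DUX4, FOS, SMOC2, CAMK1D, USP17L20, PTPRN2, ATP8B1, GPAM and MRPS9, none of them a zinc finger gene. SMOC2, which encodes a matrix-associated protein, had 1156 bp with guide 1, 1300 bp with guide 2 and 796 bp with the control guide. FOS, the immediate-early transcription factor gene, had 1419 bp with guide 1, 1085 bp with guide 2 and 913 bp with the control guide. Apart from DUX4 these genes were named after their values were seen.

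CCN1 was named as a member of the fibroblast matrix list. The other genes of this paragraph were chosen after their values were seen and from no fixed list, so no share of such genes is given. The matricellular gene CCN1 had 565 bp under guide 1, 1182 bp under guide 2 and 1182 bp in the control. It was 1 of the 7 fibroblast matrix genes with a control arm peak (14.3%, beside 12.0% of all coding genes). Of coding genes other than zinc finger genes, 5.20% had a kept peak. At FOSB, an immediate-early gene, the kept peak had 1600 bp under guide 1, 148 bp under guide 2 and 1600 bp in the control, but inside the gene body 0 bp of it lay under guide 2. At EGR1, another immediate-early gene, it had 759 bp under guide 1, 172 bp under guide 2 and 1597 bp in the control, of which 7 bp, 0 bp and 845 bp lay inside the gene body. The overlap with guide 2 was thus outside the body of both genes. NEAT1, the RNA scaffold of paraspeckles, had a kept peak with 4537 bp under guide 1, 2578 bp under guide 2 and 4537 bp in the control. MALAT1, a nuclear speckle RNA gene, had 6108 bp under guide 1, 3308 bp under guide 2 and 6671 bp in the control.

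Promoter windows of arm genes were overlapped by kept peaks in 17 of 33432 cases, and in 9 of the 17 a base was under all 3 lists. Per Mb of peak, kept peaks met 5.80 windows, against 3.87 for control peaks that met neither guide, and without the TAF11L peaks the value was 3.44. A promoter window lay under 2.58% of kept peaks, against 0.242% of the narrower peaks that met neither guide and 0.415% of all control arm peaks. Zinc finger genes with a kept peak in the body had one on the promoter window in 2 of 172 cases, at ZNF274 and ZNF404, and other coding genes in 8 of 85 cases, 7 of them TAF11L genes. For peaks that met neither guide the counts were 1 of 180 zinc finger genes and 9 of 1586 other coding genes. The ZNF404 window had 0 bp under both guides and 300 bp under the control peak, so it was not under all 3 lists. Promoter windows of zinc finger genes with a kept peak held a median of 22 CpG dinucleotides in 215 windows, against 14 in all 33432 arm windows, and the TAF11L windows held 12 or 13.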

How the data were processed

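Members and lists were chosen with earlier results of these data known. Per the submitters' processing notes, the authors used MACS2 2.2.9.1, deepTools 3.5.1, GATK and Bowtie2 2.4.2; GRCh38.p13 and hg38 are the builds named. Their settings and read numbers are not given here. Each deposited list holds 1 H3K9me3 library's peaks with a score, a whole number of at least 10 on an unnamed scale, used here only within a list. Peaks were therefore called per sample. Single peaks are named after guides that the labels do not mention, so which list is guide 1 and which is guide 2 rests on the name of the list, matched to the labels. Overlaps were computed in Python 3.11.15 with numpy 2.4.6, pandas 2.3.3 and scipy 1.17.1, figures with matplotlib 3.10.9, and the overlap step was tested on simulated data. Gene bodies and promoters came from RefSeq tables for GRCh38.p14, without exons. Depth is unknown. Named are the 15 coding genes with the most kept bases, the 8 with the largest and the 8 with the smallest common share among those with at least 2000, the 8 genes of other types with the most, up to 3 per gene list, and single peaks by width, common length, score, chromosome and smallest overlap. Beyond their part in the deposited lists, the input libraries were not analysed here.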

Additional observations from a re-analysis of the deposited data

How the results depend on the processing

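Of 64 values under 10 alternatives, 38 stayed within 1.5 times the reported count or width or within the Wilson interval of the reported share, and 26 did not. With at least 50% of the peak under each guide, 100 peaks remained, with a median width of 1380 bp, 81.3% of the length under guide 1, 74.2% under guide 2, 14.0% in zinc finger genes, 36.0% in coding genes and 24.0% on chromosome 19. With peaks at or above each list's median score, 140 of 2613 remained (5.36%). Their median width was 6804 bp, with 47.6% under guide 1, 20.2% under guide 2 and 50% in zinc finger genes. With the 1853 highest-scoring arm peaks of each list, 302 remained (16.3%). Their median width was 5530 bp, with 55.6% in zinc finger genes, 73.8% in coding genes and 44.0% on chromosome 19. Without chromosome 19, 336 remained, with 33.4% under guide 2, 25.3% in zinc finger genes and 57.1% in coding genes. Merging within 5000 bp gave a median width of 6282 bp and 72.4% in coding genes, and 5000 bp added to gene bodies gave 73.1%. Without the 4 regions (the TAF11L, USP17L and REXO1L arrays and CYKILR), an alternative chosen after seeing the data, zinc finger genes held 49.4% and coding genes 70.3%. The zinc finger share was 46.7% with at least 200 bp under each guide, so among the coverage rules it was lower only under the 50% rule. The cause was not tested. No paired analysis was possible because each group has 1 H3K9me3 library. Unknown depth limits every count.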
